A study of Mus musculus with 6 samples.

Results

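The BCL2, IAP and death receptor genes are 10 genes that set how readily a cell enters apoptosis, chosen by symbol as Bcl2, Bcl2l1, Mcl1, Bak1, Birc2, Birc3, Xiap, Cflar, Fas and Tnfrsf10b. All 10 were found by the Ensembl identifier among the 41388 genes counted, and 9 had enough reads to be tested. The samples were early-passage KP2 cells, which derive from the pancreatic tumour of a C57BL/6J mouse of the KPC model (engineered to develop pancreatic cancer), grown in DMEM with 10% FBS and antibiotics. The groups were Irak4 knockout (KO) cells with rescue, KO cells and wild-type cells, with 2 RNA-seq libraries each. The knockout was made with lentiviral CRISPR vectors against Irak4, which encodes a kinase that carries Toll-like and interleukin-1 receptor signals to NF-kB. The labels do not describe the rescue construct, any vector in the wild-type cells, or whether the KO cells were 1 clone, and they do not say that the libraries came from separate cultures, so that p-values measure the spread between these libraries only.

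Apoptosis is started along a mitochondrial and a receptor route. In the mitochondrial route the anti-apoptotic proteins BCL2, BCL-XL (from Bcl2l1) and MCL1 hold BAK and BAX in check, and BH3-only proteins relieve that hold so that BAK and BAX open the outer membrane and caspases are activated. In the receptor route FAS and the TRAIL receptor (from Tnfrsf10b) recruit FADD and caspase-8, which cFLIP (from Cflar) restrains, while the inhibitor of apoptosis proteins (IAPs) act further down. XIAP binds and inhibits caspases, and cIAP1 and cIAP2 (from Birc2 and Birc3) are ubiquitin ligases of the TNF receptor complex. Birc3, Cflar and Bcl2l1 are known NF-kB targets, and such genes are known to keep cells alive under TNF.

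Totals ranged from 7605328 to 11505983 counts per library. Irak4 itself had 492 and 211 normalised CPM (counts scaled to library size) in the rescue, 20.4 and 21.8 in the KO, and 37.9 and 37.6 in wild type, and the difference between KO and wild type did not pass the test (log2 fold change -0.84, edgeR adjusted p = 0.0573). The spread between libraries of a group was widest in the rescue, with a biological coefficient of variation of 10.5% in the rescue, 6.08% in the KO and 5.08% in wild type. The keratin genes Krt8, Krt18 and Krt19 were abundant, while Epcam had at most 0.119 CPM in any library. The 8 epithelial and ductal markers summed to 4778 to 5638 CPM in the rescue, 3902 to 4006 in the KO and 6728 to 7040 in wild type. The part of this difference in the results on the BCL2 and IAP genes was not tested. The 7 immune markers summed to 4.26 to 5.2 CPM in the rescue, 4.35 to 4.47 in the KO and 4.04 to 4.4 in wild type. Most of this was Cd68, while Adgre1, Lyz2 and Cd3e were at 0 in all 6 libraries and Ptprc had at most 0.254 CPM. The 5 fibroblast markers summed to 6.47 to 10.9 CPM in the rescue, 4.7 to 6.77 in the KO and 5.34 to 6.25 in wild type, with Dcn and Lum at 0. The endothelial marker Cdh5 had 14.7 and 37.8 CPM in the rescue, 15.9 and 30.5 in the KO, and 2.97 and 3.62 in wild type, with Pecam1 at most 0.254 CPM in any library. Kdr, the third endothelial marker, went the other way, at most 0.133 CPM in the rescue and 0.115 in the KO, against 1.54 and 1.66 in wild type, and the part of these markers in the results was not tested. In bulk RNA, fewer cells of a type and less RNA per cell cannot be told apart.

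Birc2 and Birc3 are neighbours on chromosome 9 and paralogs, and their transcripts behaved differently in the KO. For these genes and for Cflar and Bcl2l1, which fell with Birc3, 1 RefSeq promoter window each is shown. A window is the 250 bases before an annotated start, on the gene's own strand in build GRCm38.p6. Capitals mark a match to the kB consensus, the motif bound by NF-kB, or to the AP-1 motif TGANTCA, on either strand. Of the 3 Bcl2l1 windows the one with a match is shown, and of the 2 Birc2 windows, which hold no match, the first listed. The windows of Bcl2 and Mcl1, which also fell, hold no match and are not shown.
Birc3 promoter, chr9:7873171-7873420, minus strand: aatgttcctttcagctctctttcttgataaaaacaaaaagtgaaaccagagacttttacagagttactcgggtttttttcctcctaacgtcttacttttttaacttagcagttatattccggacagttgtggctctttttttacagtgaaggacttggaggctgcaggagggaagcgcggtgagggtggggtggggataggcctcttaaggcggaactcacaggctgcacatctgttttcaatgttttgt
Birc2 promoter, chr9:7837058-7837307, minus strand: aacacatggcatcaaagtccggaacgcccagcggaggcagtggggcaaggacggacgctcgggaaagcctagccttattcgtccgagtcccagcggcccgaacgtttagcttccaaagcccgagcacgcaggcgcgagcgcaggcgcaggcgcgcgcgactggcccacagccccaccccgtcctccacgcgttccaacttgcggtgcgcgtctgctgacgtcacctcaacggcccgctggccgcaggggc
Cflar promoter, chr1:58711241-58711490, plus strand: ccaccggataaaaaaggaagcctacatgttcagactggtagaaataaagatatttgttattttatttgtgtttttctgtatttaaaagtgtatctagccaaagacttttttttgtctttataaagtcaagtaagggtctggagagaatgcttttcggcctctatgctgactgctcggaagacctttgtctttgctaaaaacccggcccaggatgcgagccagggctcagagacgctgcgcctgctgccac
Bcl2l1 promoter, chr2:152830718-152830967, minus strand: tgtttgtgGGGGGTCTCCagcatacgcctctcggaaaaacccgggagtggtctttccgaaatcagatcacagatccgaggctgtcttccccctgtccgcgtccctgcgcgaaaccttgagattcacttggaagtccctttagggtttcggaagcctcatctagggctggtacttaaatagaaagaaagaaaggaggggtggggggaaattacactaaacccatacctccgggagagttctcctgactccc
The kB consensus matched once among the 14 windows that RefSeq gives for 9 of the 10 genes, at the bases GGGGGTCTCC, 242 to 233 bases before the second of 3 listed Bcl2l1 starts, and 7.25% of 32851 mouse windows of this length hold a match. The AP-1 motif matched once, in the Fas window, against 6.75% of all windows. No match says only that these letters are not in this window. The Birc2 window shown was 68.4% G and C, and the Birc3 window 43.6%.

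**Figure D1:**
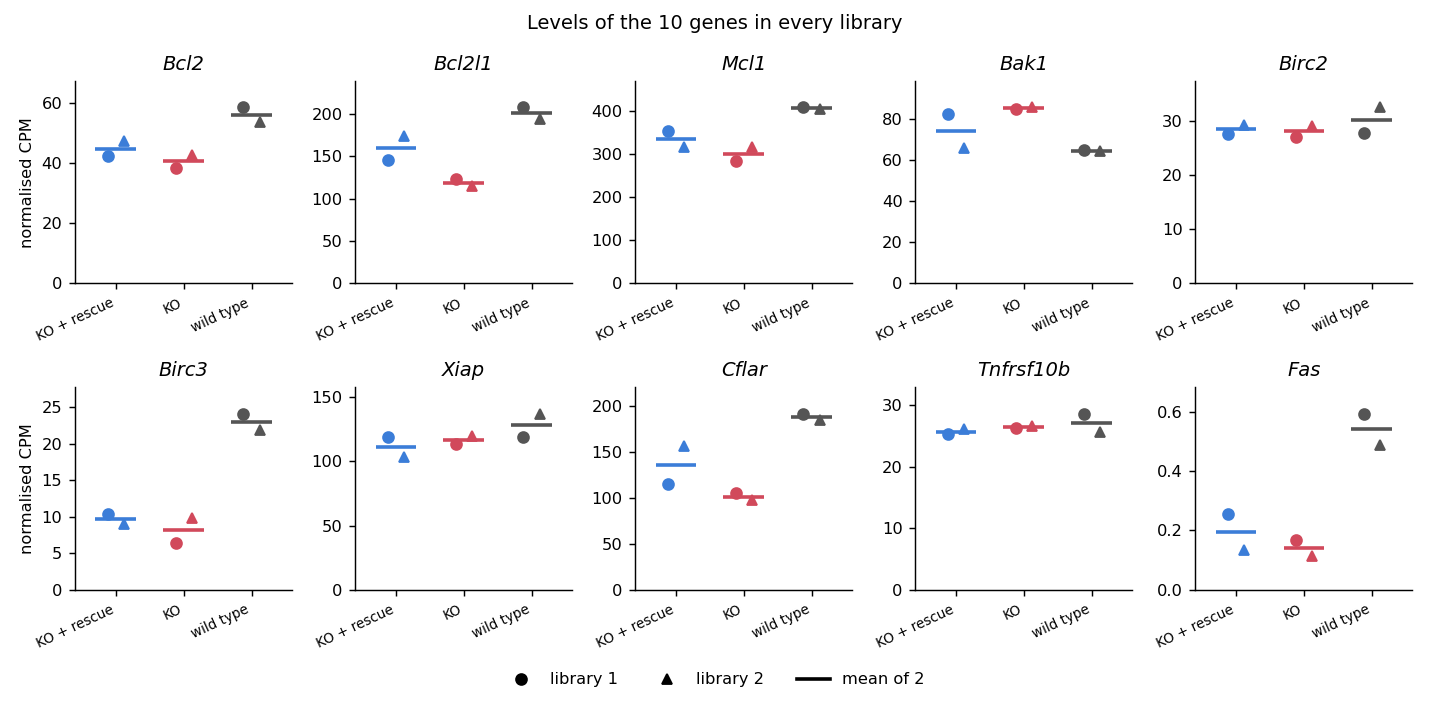
Normalised CPM (vertical axes, starting at 0) of each of the 10 genes in the rescue, KO and wild-type libraries, with a circle for library 1, a triangle for library 2 and a bar for their mean. Both KO libraries lie below both wild-type libraries for Bcl2, Bcl2l1, Mcl1, Birc3, Cflar and the barely detected Fas, and above them for Bak1.

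The anti-apoptotic BCL2 genes were all lower in the KO than in wild type. Bcl2l1 (ENSMUSG00000007659, chromosome 2, 152780668 to 152831728), which encodes BCL-XL, had 122.7 and 115 normalised CPM in the KO libraries, against 207 and 194 in the wild-type libraries. The groups did not overlap, and Bcl2l1 was 1.69-fold lower in the KO (log2 fold change -0.75, SE 0.098, edgeR quasi-likelihood test with Benjamini-Hochberg adjustment over 12339 genes, adjusted p = 0.000108). Bcl2 (ENSMUSG00000057329, chromosome 1, 106538178 to 106714274), the founding member of the family, had 38.5 and 42.9 CPM in the KO, against 58.7 and 53.8 in wild type. Both KO libraries were again the lower ones, with a log2 fold change of -0.47 (SE 0.103, edgeR adjusted p = 0.00303). Mcl1 (ENSMUSG00000038612, chromosome 3, 95658721 to 95663176), whose protein is short-lived, had 285 and 317 CPM in the KO, against 409 and 406 in wild type. Its fall of 1.36-fold also left the groups apart (log2 fold change -0.44, SE 0.09, edgeR adjusted p = 0.00199).

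Bak1 moved the other way. Bak1 (ENSMUSG00000057789, chromosome 17, 27019810 to 27029009), which encodes the pore-forming protein BAK, had 84.8 and 85.5 CPM in the KO, against 64.8 and 64.1 in wild type. It was the 1 tested gene of the 10 that rose, 1.32-fold with both KO libraries above both wild-type libraries (log2 fold change 0.40, SE 0.105, edgeR adjusted p = 0.00828). The call was lost without the first or the second wild-type library, with log2 fold changes of 0.41 and 0.39. Its exons overlap Ggnbp1 on the opposite strand over 717 bases, with 202 counts for Ggnbp1 and 4104 for Bak1 over the 6 libraries, and since no strand setting is stated, reads in the overlap cannot be told apart.

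Of the IAP genes, Birc3 fell and its neighbour Birc2 and Xiap did not pass the test. Birc3 (ENSMUSG00000032000, chromosome 9, 7848699 to 7873186) had 6.43 and 9.86 CPM in the KO, against 24.1 and 21.8 in wild type. This was the steepest change among the 9 tested genes, 2.87-fold lower with no overlap (log2 fold change -1.52, SE 0.19, edgeR adjusted p = 8.54e-05), and 4.37% of all genes tested had a lower log2 fold change. Birc2 (ENSMUSG00000057367, chromosome 9, 7818227 to 7837064) had 27.1 and 29.1 CPM in the KO, against 27.9 and 32.5 in wild type. Its groups overlapped, and the log2 fold change of -0.11 had a 95% interval of -0.37 to 0.14 (edgeR adjusted p = 0.456), so that a change of the size of Birc3's lies outside the interval. The difference between the changes of Birc3 and Birc2 was not tested in a model of its own. Xiap (ENSMUSG00000025860, chromosome X, 42059679 to 42109656) had 114.0 and 120.1 CPM in the KO, against 119 and 137 in wild type. The groups overlapped, with an interval of -0.35 to 0.08 around a log2 fold change of -0.13 (edgeR adjusted p = 0.294). Of the 50-base words in Birc3 transcripts 7.56% occur in transcripts of another gene, most of them in Gm7019, which had 0 counts, and Birc2 shares 65 of its 4579 words with Birc3.

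Cflar fell, the receptor gene Tnfrsf10b did not pass the test, and Fas was too low to test. Cflar (ENSMUSG00000026031, chromosome 1, 58711508 to 58758884), whose product cFLIP resembles caspase-8 but has no protease activity, had 105 and 97.3 CPM in the KO, against 192 and 184 in wild type. It was 1.86-fold lower without overlap (log2 fold change -0.89, SE 0.122, edgeR adjusted p = 0.000148). Tnfrsf10b (ENSMUSG00000022074, chromosome 14, 69767472 to 69784403), the TRAIL receptor of the mouse, had 26.2 and 26.6 CPM in the KO, against 28.6 and 25.7 in wild type. Both KO values lay between the wild-type values, and the log2 fold change of -0.04 had an interval of -0.28 to 0.21 (edgeR adjusted p = 0.81). Fas (ENSMUSG00000024778, chromosome 19, 34290659 to 34327770) was barely detected, with 2 and 1 counts in the rescue, 2 and 1 in the KO and 5 and 5 in wild type, and was not tested. Its ratio of KO to wild type was 0.271 with a 95% counting interval of 0.0478 to 1.05, and of rescue to wild type 0.364 (0.0643 to 1.41), intervals that cover counting error only.

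In all, 5 of the 9 tested genes (55.6%) were lower in the KO, where 23.5% of all genes tested were, and 1 (11.1%) was higher, where 23.2% of all genes were. Groups did not overlap for 6 of the 9 genes, where 76.6% of all genes did not overlap. The median log2 fold change of the 9 genes was -0.44, against 0.01 for all genes. The median of their absolute changes was 0.44, against 0.34 for all genes, so that the sizes were not far from those of other genes in a comparison where 46.8% of all genes were called. All 5 falls were called in every alternative other than the test against a 1.5-fold change, where Birc3 and Cflar remained called; lost calls given elsewhere leave this stricter test aside. Scaling to total counts in place of TMM moved the median log2 fold change of all genes from 0.01 to 0.14 and the share of calls that were higher from 49.7% to 64.2%, and the 5 falls and the rise of Bak1 kept their calls.

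**Figure D2:**
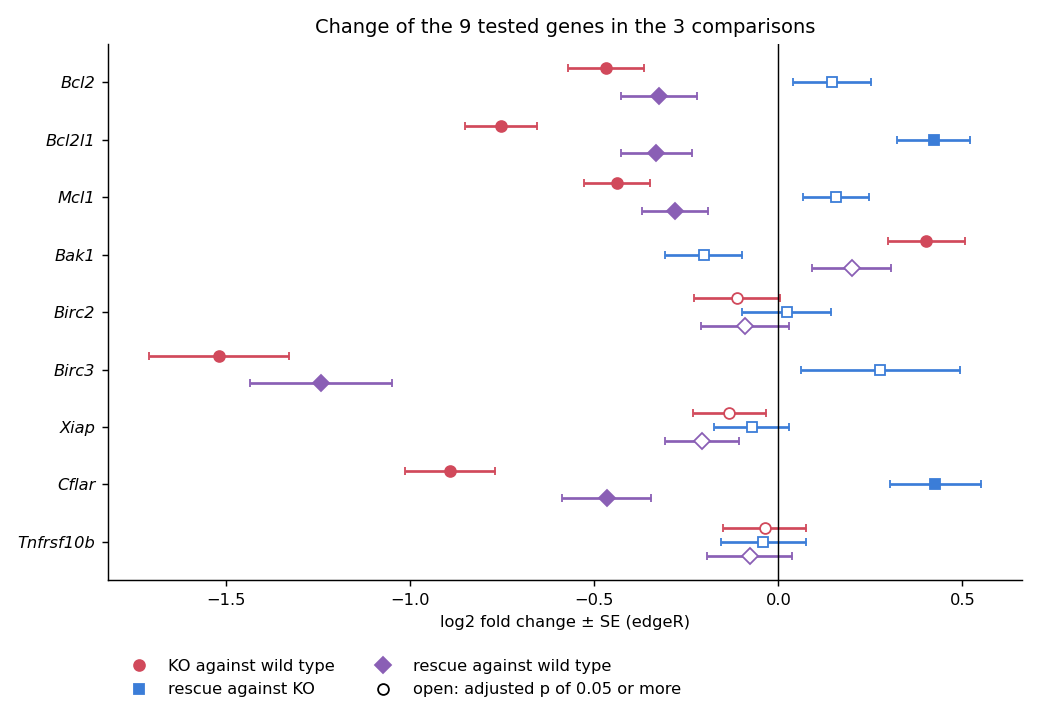
Log2 fold change from edgeR with its standard error (horizontal axis) for the 9 tested genes in 3 comparisons, each named in the legend; filled symbols had an adjusted p under 0.05 and open symbols did not. Birc3, Cflar, Bcl2l1, Bcl2 and Mcl1 have filled symbols left of 0 against wild type both in the KO and in the rescue, and Bcl2l1 and Cflar have filled symbols right of 0 for the rescue against the KO.

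Rescue and KO libraries were set against each other to see which of these transcripts differ between KO cells with and without the rescue. Bcl2l1 and Cflar were higher in the rescue, and the other 7 tested genes did not pass the test. Bcl2l1 had 145 and 174 CPM in the rescue, against 122.7 and 115 in the KO. Both rescue libraries were above both KO libraries and below both wild-type libraries (log2 fold change against the KO 0.42, SE 0.099, edgeR adjusted p = 0.0182). Cflar had 116 and 157 CPM in the rescue, against 105 and 97.3 in the KO. Its rescue libraries also lay between the KO and wild type, far apart from each other (log2 fold change 0.43, SE 0.124, edgeR adjusted p = 0.0411). These counts are 2 of 9 higher (22.2%, against 8.35% of all genes) and 0 of 9 lower (against 5.88% of all genes), with 0 lower also at an unadjusted p under 0.05 in edgeR and 0 in DESeq2. Groups did not overlap for 4 of the 9 genes, where 59.4% of all genes did not overlap. Leaving out either KO library or the second rescue library ended both calls, and leaving out either wild-type library ended that of Cflar. The Cflar call was also lost with only the compared groups in the fit, with a block for the replicate numbers and with total-count scaling.

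The other 7 genes showed no difference past the threshold. Birc3 had 10.4 and 8.92 CPM in the rescue, against 6.43 and 9.86 in the KO, and the groups overlapped (log2 fold change 0.28, 95% interval -0.20 to 0.75, edgeR adjusted p = 0.421). Bcl2 had 42.4 and 47.4 CPM in the rescue, against 38.5 and 42.9 in the KO, with overlap. Mcl1 had 354 and 316.3 CPM in the rescue, against 285 and 316.5 in the KO, with the second rescue library just under the second KO library. Bak1 had 82.2 and 65.7 CPM in the rescue, against 84.8 and 85.5 in the KO. Its first rescue library was near the KO level and its second near the wild-type level, and the log2 fold change of -0.20 did not pass (edgeR adjusted p = 0.217). Without the first rescue library the fall of Bak1 passed, with a log2 fold change of -0.38. Birc2, Xiap and Tnfrsf10b had log2 fold changes of 0.02, -0.07 and -0.04, with 95% intervals of -0.24 to 0.28 for Birc2, -0.29 to 0.15 for Xiap and -0.29 to 0.21 for Tnfrsf10b.

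Against wild type, the same 5 genes that were lower in the KO were lower in the rescue, in comparisons that share the wild-type libraries. Birc3 was 2.37-fold lower in the rescue, at 10.4 and 8.92 CPM against 24.1 and 21.8 in wild type (log2 fold change -1.24, SE 0.193, edgeR adjusted p = 0.000912). Both rescue libraries stood below both wild-type libraries, and the call held in all 14 alternatives. Cflar had a log2 fold change of -0.47 (SE 0.121, edgeR adjusted p = 0.0179), Bcl2l1 of -0.33 (SE 0.097, adjusted p = 0.031), Bcl2 of -0.32 (SE 0.104, adjusted p = 0.0448) and Mcl1 of -0.28 (SE 0.09, adjusted p = 0.0432). For these 4 genes both rescue libraries were below both wild-type libraries, but the calls of all 4 were lost without either wild-type library. The calls of Bcl2, Bcl2l1 and Cflar were lost also without the first rescue library, that of Mcl1 without the second, and those of Bcl2 and Mcl1 without either KO library. With total-count scaling, and also with a block for the replicate numbers, Birc3 and Cflar were the 2 genes still called. The calls of Bcl2 and Mcl1 were lost with only the compared groups in the fit, and that of Bcl2 also in DESeq2. The 5 of 9 genes lower (55.6%) stand against 12% of all genes, and the 0 of 9 higher against 10.2%, with 0 higher also at an unadjusted p under 0.05 in edgeR and 0 in DESeq2. Groups did not overlap for 7 of the 9 genes, where 61.6% of all genes did not overlap. Bak1 had 82.2 and 65.7 CPM in the rescue, against 64.8 and 64.1 in wild type, and did not pass (log2 fold change 0.20, edgeR adjusted p = 0.216). It passed without the second rescue library, and Xiap (log2 fold change -0.21, adjusted p = 0.17) passed without the first. Bcl2l1 and Cflar were thus the 2 of 9 genes called lower in the KO against wild type and higher in the rescue against the KO, where 6.96% of all genes were. These comparisons share the KO libraries, so that low values there move both calls. The call in the rescue against the KO held in 10 of 14 alternatives for Bcl2l1 and in 5 of 14 for Cflar. Called lower in both comparisons with wild type were 5 of 9 genes, where 10.6% of all genes were.

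Per gene length the 10 genes covered a wide range of levels. On the scale of the deposited RPKM (reads scaled to gene length and library size), Mcl1 was the highest in every group, at 95.9 ± 8.96 in the rescue, 90.1 ± 7.14 in the KO and 112 ± 0.79 in wild type (SD, n = 2 each). Fas was the lowest, at 0.108 ± 0.049 RPKM in the rescue, 0.082 ± 0.021 in the KO and 0.288 ± 0.036 in wild type. Bcl2l1 was second in wild type at 41.8 ± 1.48 RPKM, ahead of Bak1 at 25.6 ± 0.09. In the KO this order was exchanged, with Bak1 at 36.9 ± 0.41 and Bcl2l1 at 27.1 ± 1.08 RPKM. In the rescue Bcl2l1 at 34.6 ± 3.91 and Bak1 at 30.6 ± 5.25 RPKM did not differ beyond their spread. Xiap had 11.97 ± 1.35 RPKM in the rescue, 13.2 ± 0.56 in the KO and 13.2 ± 1.5 in wild type. Cflar had 10.7 ± 2.14 RPKM in the rescue, 8.34 ± 0.41 in the KO and 14.2 ± 0.24 in wild type, apart from Xiap beyond the spread in the KO but not in the rescue or wild type. Cflar and Tnfrsf10b in the KO, and Birc2 and Bcl2 in wild type, were the other neighbours in the order that did not differ beyond their spread. Birc3 was the ninth gene in each group, at 1.92 ± 0.23 RPKM in the rescue, 1.70 ± 0.51 in the KO and 4.38 ± 0.26 in wild type.

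**Figure D3:**
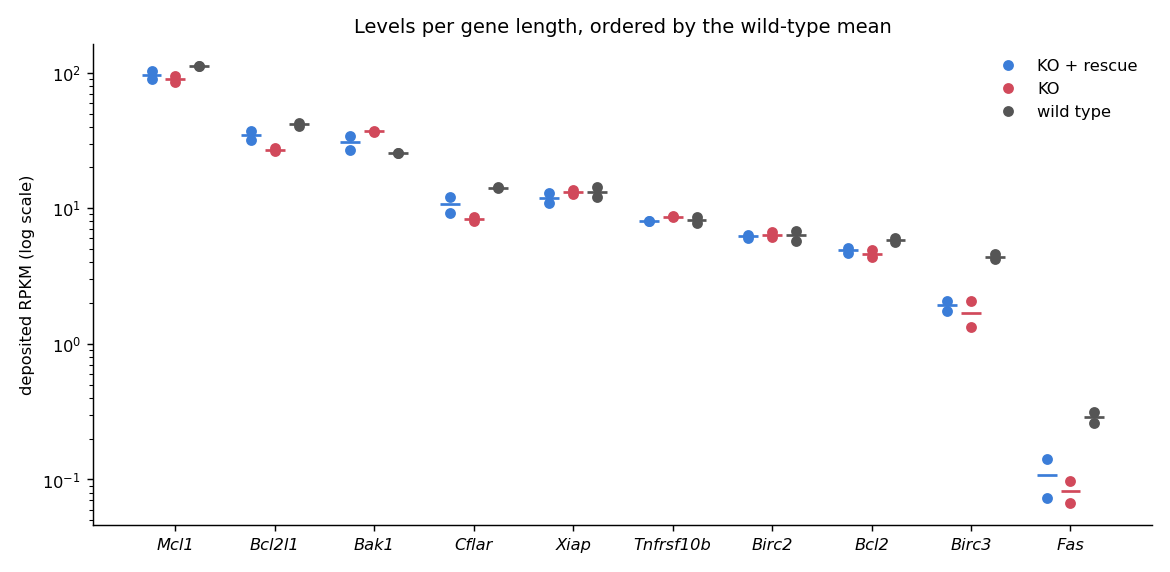
Deposited RPKM on a log scale (vertical axis) of the 10 genes, ordered by the wild-type mean, with 1 point per library and a bar for the group mean in the rescue, KO and wild type. Mcl1 is highest and Fas lowest in every group, and the mean of Bak1 lies above that of Bcl2l1 in the KO alone.

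Ratios of RPKM within a library show unequal change of 2 transcripts and do not depend on the scaling of the library. The sum of Bcl2, Bcl2l1, Bcl2l2 and Mcl1 over the sum of Bax and Bak1 was 1.24 and 1.31 in the rescue, 0.95 and 0.967 in the KO, and 1.68 and 1.71 in wild type. The 3 groups did not overlap, with the rescue between the KO and wild type. That sum leaves out Bok, the pore-forming gene that fell; with Bok added to Bax and Bak1 the ratio was 0.951 and 0.986 in the rescue, 0.715 and 0.742 in the KO, and 1.16 and 1.16 in wild type, in the same order of groups. The ratio of Bcl2l1 to Bak1 was 0.927 and 1.39 in the rescue, 0.759 and 0.706 in the KO, and 1.68 and 1.59 in wild type, in the same order of groups. The ratio of Birc3 to Birc2 was 0.344 and 0.278 in the rescue, 0.217 and 0.31 in the KO, and 0.79 and 0.612 in wild type. Here the rescue and KO overlapped and both stood below wild type. The ratio of Cflar to Casp8, the gene of the caspase that cFLIP restrains, was 0.467 and 0.518 in the rescue, 0.422 and 0.422 in the KO, and 0.495 and 0.502 in wild type, so that the rescue libraries lay on either side of wild type. These ratios describe transcript levels, and the genes in them were chosen with their changes known.

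**Figure D4:**
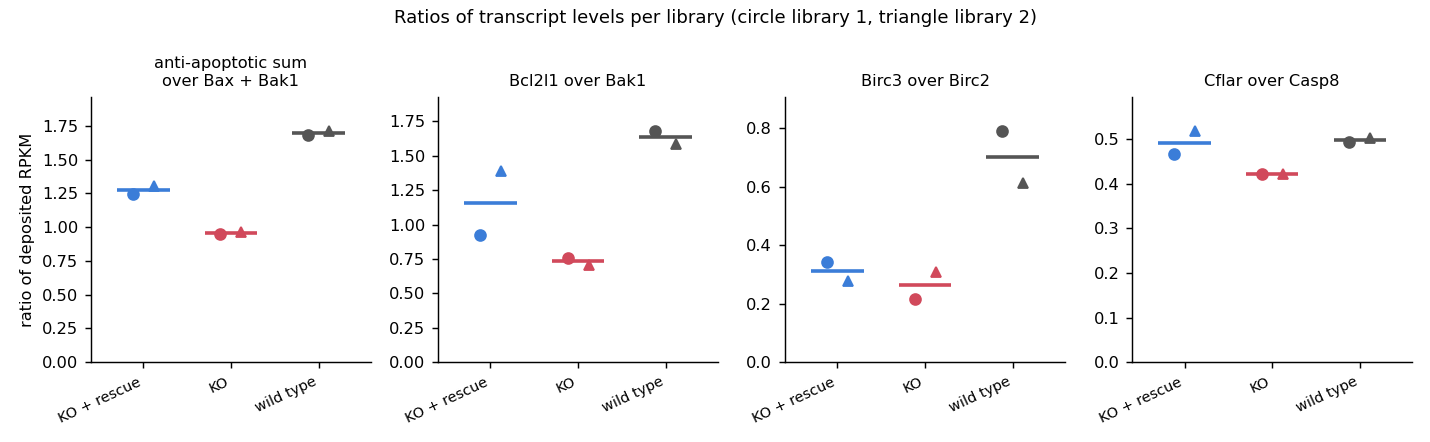
Ratios of deposited RPKM within each library (vertical axes, starting at 0) in the rescue, KO and wild type, with a circle for library 1, a triangle for library 2 and a bar for the mean. The anti-apoptotic sum over Bax and Bak1 is 0.95 and 0.967 in the KO against 1.68 and 1.71 in wild type, with the rescue between them, and the ratio of Birc3 to Birc2 is low in both the rescue and the KO.

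The 10 genes belong to a larger list of 68 apoptosis and necroptosis genes, of which 52 were tested. In the KO against wild type 11 of the 52 were higher and 18 lower, and among the 43 that are not in the set of 10 it was 10 and 13. The share called was 55.8% of the list, against 46.8% of all genes, and the median log2 fold change of the list was -0.12. Among the 43 genes outside the set of 10 the share was 53.5% and the median -0.01, against a median of 0.01 for all genes. With DESeq2 6 genes of the list were higher in the KO, without the first or second wild-type library 5 and 6, and without the second KO library 7. With total-count scaling the balance turned, to 18 higher and 15 lower in the KO. In the rescue against the KO 10 were higher and 4 lower (26.9% called, against 14.2% of all genes), and in the rescue against wild type 8 were higher and 16 lower (46.2%, against 22.2% of all genes). These rescue counts also moved by over 1.5 times without single libraries, with 2 to 12 higher and 0 to 6 lower against the KO, and 2 to 9 higher and 7 to 14 lower against wild type.

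The BH3-only genes, whose products promote apoptosis, held the steepest falls of the list. Of 8 listed 6 were tested, and 3 fell and 1 rose in the KO (66.7% called, against 46.8% of all genes). Pmaip1, which encodes NOXA, an antagonist of MCL1, had 4.61 ± 0.12 CPM in the rescue, 2.31 ± 0.31 in the KO and 22.0 ± 0.69 in wild type (SD, n = 2 each). It was 9.61-fold lower in the KO than in wild type (log2 fold change -3.26, edgeR adjusted p = 5.07e-07), 2.02-fold higher in the rescue than in the KO (edgeR adjusted p = 0.0209) and 4.76-fold lower in the rescue than in wild type (edgeR adjusted p = 5.93e-06). Bcl2l11, which encodes BIM, had 35.5 ± 10.0 CPM in the rescue, 22.4 ± 1.74 in the KO and 65.1 ± 8.49 in wild type. It fell 2.91-fold in the KO (edgeR adjusted p = 3.06e-05), and rose 1.59-fold in the rescue over the KO (edgeR adjusted p = 0.0286). In the rescue Bcl2l11 was still 1.83-fold lower than in wild type (edgeR adjusted p = 0.00273). Bmf had 8.35 ± 2.01 CPM in the rescue, 10.9 ± 3.17 in the KO and 20.0 ± 1.00 in wild type, lower in both comparisons with wild type (edgeR adjusted p = 0.00191 in the rescue and 0.00367 in the KO). The rises of Pmaip1 and Bcl2l11 in the rescue over the KO were lost without either KO library, without the second rescue library and with only the compared groups in the fit, that of Pmaip1 also in DESeq2, and the KO call of Bmf without the first KO library. Thus the 4 tested anti-apoptotic genes and 3 of the 6 tested BH3-only genes were lower in the KO, while 1 of the 6 was higher. That gene, Bid, kept its call in 8 of 14 alternatives. The call was lost in DESeq2 and without any 1 of the wild-type or KO libraries. Bid exons overlap Bcl2l13 on the opposite strand.

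Among the other BCL2 genes, the anti-apoptotic Bcl2l2 (BCL-W) was lower in the KO, at 54.6 ± 0.24 CPM in the rescue, 47.7 ± 2.02 in the KO and 63.6 ± 5.63 in wild type (KO against wild type, edgeR adjusted p = 0.00408). All 4 tested anti-apoptotic genes of 8 listed were called lower in the KO, where 23.5% of all genes were. They include Bcl2, Bcl2l1 and Mcl1, which were already counted above. The other 4 listed genes had 0 or 1 count in all libraries together. The call of Bcl2l2 was lost without the first wild-type library. Of the 3 pore-forming genes Bax rose with Bak1, at 74.2 ± 1.38 CPM in the rescue, 84.7 ± 3.85 in the KO and 69.5 ± 3.03 in wild type (edgeR adjusted p = 0.0173). Bok fell, at 65.4 ± 0.77 CPM in the rescue, 74.5 ± 1.76 in the KO and 88.7 ± 0.32 in wild type (edgeR adjusted p = 0.00333 for the rescue and 0.0249 for the KO, both against wild type). The KO call of Bax was lost in DESeq2, without either wild-type library and without the second KO library. That of Bok held in 5 of 14 alternatives.

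Among the other IAP genes and the IAP antagonists, calls in the KO were of genes that rose. Of 9 IAP genes tested, 3 rose and 1 fell in the KO, a share of 44.4% called that was near the 46.8% of all genes. Birc5, which encodes survivin, a protein of dividing cells, had 84.7 ± 0.38 CPM in the rescue, 103 ± 2.23 in the KO and 69.8 ± 4.29 in wild type, higher in the KO than in wild type (log2 fold change 0.56, edgeR adjusted p = 0.000286). Naip2 had 19.2 ± 0.02 CPM in the rescue, 26.3 ± 0.06 in the KO and 18.3 ± 0.78 in wild type (KO against wild type, edgeR adjusted p = 0.00367). Naip5 had 0.853 ± 0.489 CPM in the rescue, 2.26 ± 0.12 in the KO and 0.817 ± 0.188 in wild type (KO against wild type, edgeR adjusted p = 0.0154), a call lost in DESeq2 and without any 1 of the KO or wild-type libraries. The Naip genes are close copies, and their counts depend on how shared reads were assigned. Xaf1, an interferon-induced antagonist of XIAP, had 166 ± 13.3 CPM in the rescue, 98.9 ± 8.31 in the KO and 32.1 ± 3.25 in wild type. It rose 3.08-fold in the KO over wild type (edgeR adjusted p = 1.37e-06) and was 1.68-fold higher again in the rescue than in the KO (edgeR adjusted p = 0.00191). Htra2, a mitochondrial protease that cuts IAPs, had 40.9 ± 2.90 CPM in the rescue, 63.7 ± 8.77 in the KO and 69.7 ± 4.20 in wild type, lower in the rescue than in either (edgeR adjusted p = 0.00631 against the KO and 0.000729 against wild type). The call against the KO was lost without the second KO library, and Htra2 exons overlap Loxl3 and Aup1 on the opposite strand.

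Most ligands of the death receptors were close to absent, while decoy receptor genes changed. Fasl and Lta had 0 counts in all libraries together, Tnf had 1 and Tnfsf10, which encodes TRAIL, had 14. Tnfsf15, the 1 tested ligand, had 1.03 ± 0.52 CPM in the rescue, 1.16 ± 0.02 in the KO and 2.83 ± 0.14 in wild type. It was lower in both comparisons with wild type (edgeR adjusted p = 0.026 in the rescue and 0.0141 in the KO), calls lost in DESeq2 and without either wild-type or either KO library, that of the rescue also without its second library. Of the 3 death receptors tested, 0 were called in the KO against wild type, where 46.8% of all genes were. The count was 0 also at an unadjusted p under 0.05 in edgeR and 0 in DESeq2. With only 3 genes it says little about death receptors as a group. In the rescue Tnfrsf1a, the main TNF receptor, had 71.1 ± 2.23 CPM, against 91.9 ± 3.52 in wild type (edgeR adjusted p = 0.0123). Tnfrsf21 had 37.4 ± 13.7 CPM in the rescue, 64.4 ± 3.05 in the KO and 57.1 ± 4.29 in wild type, lower in the rescue (edgeR adjusted p = 0.0161 against the KO and 0.031 against wild type). Both calls against wild type were lost without either wild-type library, that of Tnfrsf21 also without the second rescue library, and its call against the KO without either KO library. The mouse decoy receptor gene Tnfrsf23, whose product binds TRAIL and sends no death signal, had 140 ± 13.4 CPM in the rescue, 91.3 ± 5.04 in the KO and 166 ± 1.69 in wild type. It fell in the KO (edgeR adjusted p = 2.95e-05) and rose in the rescue over the KO (edgeR adjusted p = 0.0029). Its neighbour Tnfrsf22, also a decoy receptor gene, had 154.5 ± 4.89 CPM in the rescue, 111 ± 8.88 in the KO and 139.7 ± 8.32 in wild type. It fell in the KO (edgeR adjusted p = 0.0104) and rose in the rescue over the KO (edgeR adjusted p = 0.00785). Both calls were lost without the first KO library, and the fall also without the second wild-type library and under total-count scaling. The third tested gene listed with the decoy receptors, Tnfrsf26, was low, at 2.65 ± 0.92 CPM in the rescue, 2.15 ± 0.68 in the KO and 0.964 ± 0.019 in wild type. It was higher in the rescue than in wild type (edgeR adjusted p = 0.0351), in 6 of 14 alternatives.

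Beside Cflar, 4 of the 10 other genes of the death-inducing and TNF receptor complexes fell in the KO and 1 rose, and with Cflar 54.5% were called, against 46.8% of all genes. Traf1, an adaptor of TNF receptors and a known NF-kB target, had 8.88 ± 1.44 CPM in the rescue, 8.68 ± 1.17 in the KO and 23.7 ± 3.26 in wild type. Like Birc3 it was lower in both comparisons with wild type (edgeR adjusted p = 0.000224 in the rescue and 5.82e-05 in the KO), and its rescue and KO libraries overlapped. Casp8 had 62.8 ± 8.88 CPM in the rescue, 54.7 ± 2.99 in the KO and 86.2 ± 3.27 in wild type (edgeR adjusted p = 0.0102 in the rescue and 0.000425 in the KO, both against wild type). Cyld, a deubiquitinase of the TNF receptor complex, had 129.6 ± 17.9 CPM in the rescue, 93.3 ± 0.61 in the KO and 139.6 ± 5.24 in wild type, falling in the KO (edgeR adjusted p = 0.000641) and rising in the rescue over it (edgeR adjusted p = 0.0122). Fadd, the adaptor that binds caspase-8, rose, at 17.2 ± 2.16 CPM in the rescue, 18.8 ± 2.74 in the KO and 11.3 ± 0.34 in wild type (edgeR adjusted p = 0.0221 in the rescue and 0.00266 in the KO, both against wild type). The calls of Casp8 and Fadd in the rescue were lost without either wild-type library, that of Fadd also without the first rescue library and in DESeq2, and that of Cyld without either KO library or the second rescue library. Of the 7 caspase and apoptosome genes 2 rose and 1 fell in the KO, a share of 42.9% called that was near the 46.8% of all genes. Casp6 had 46.0 ± 1.16 CPM in the rescue, 31.8 ± 2.05 in the KO and 54.3 ± 2.39 in wild type, falling in the KO (edgeR adjusted p = 8.84e-05) and rising in the rescue over it (edgeR adjusted p = 0.00735), the rise being lost without either KO library. Casp2 had 89.3 ± 3.25 CPM in the rescue, 99.1 ± 3.62 in the KO and 75.7 ± 0.31 in wild type, and rose in the KO (edgeR adjusted p = 0.00271).

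**Figure D5:**
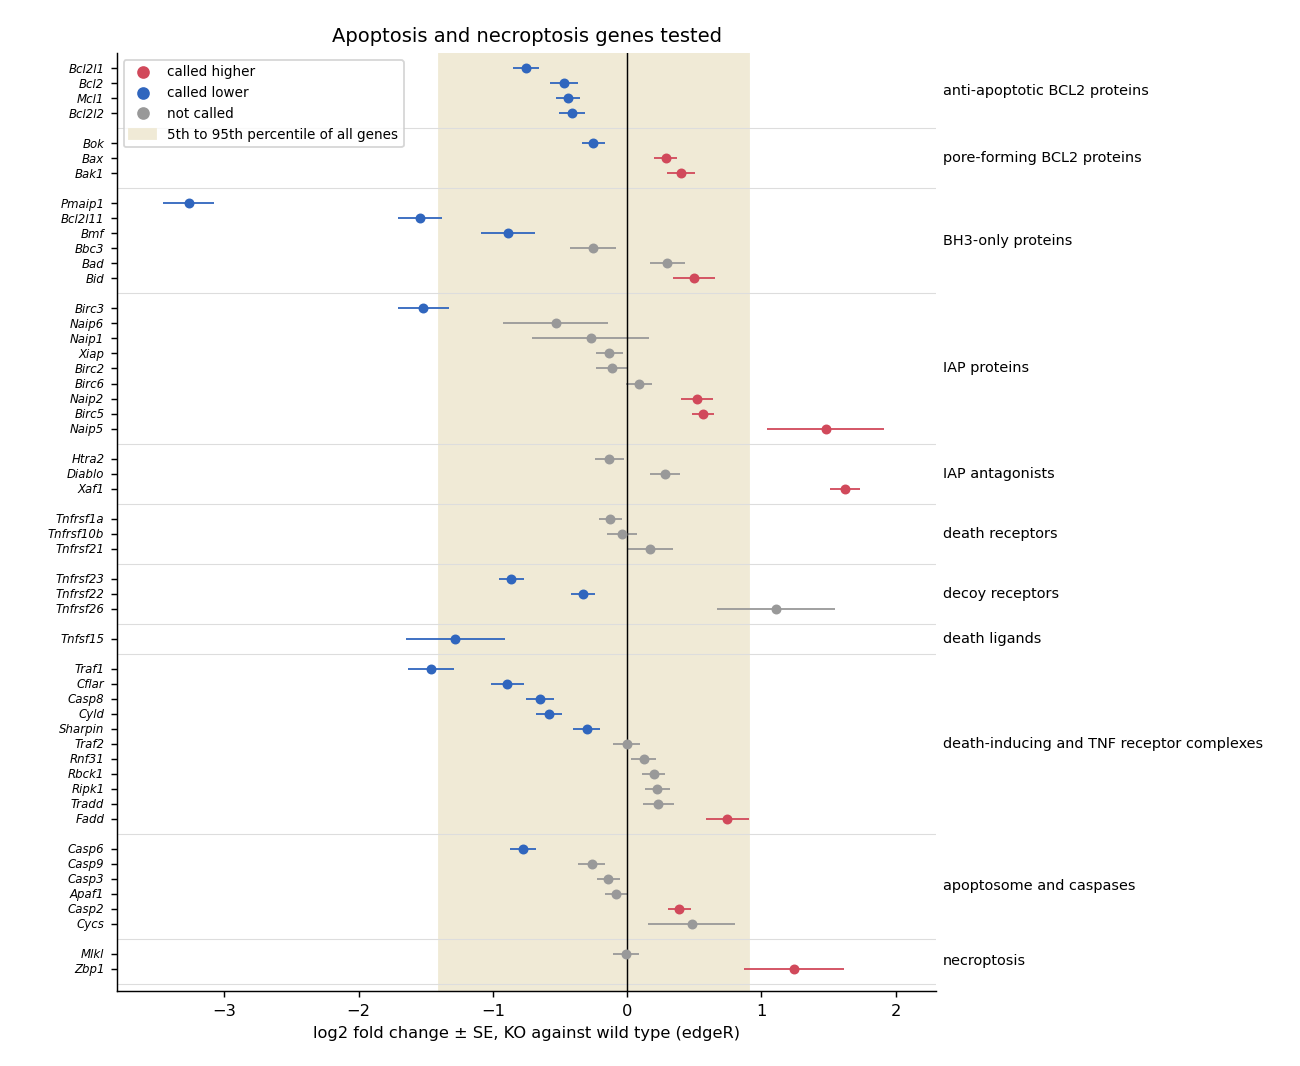
Log2 fold change with its standard error, KO against wild type (horizontal axis), of 51 of the 52 tested apoptosis and necroptosis genes, grouped by role, with colours for genes called higher, called lower or not called by edgeR and a band for the 5th to 95th percentile of all genes. The 4 anti-apoptotic BCL2 genes lie left of 0, and Pmaip1 at -3.26, Bcl2l11 at -1.54, Traf1 at -1.46 and Birc3 at -1.52 lie beyond the left edge of the band, with Xaf1 at 1.62, Naip5 at 1.48, Zbp1 at 1.25 and Tnfrsf26 at 1.11 beyond the right.

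The genes whose pattern over the 6 libraries was most like that of each of the 9 tested genes were found by Pearson's r of log2 CPM among 9921 others, as a description, since with 6 libraries in 3 groups many genes reach a high r. Birc3 was most like Kctd17 (r = 0.998) and Efna1 (r = 0.997), Cflar most like Dixdc1 and Usp35 (both r = 0.999), and Bcl2l1 most like Gtpbp2 and Sat2 (both r = 0.999). Bcl2 was most like Dusp4 (r = 0.997) and Castor2 (r = 0.996), Mcl1 most like Arl4c and Marcks (both r = 0.994), and Bak1 most like Eif2b4 (r = 0.998) and Ppp2r1b (r = 0.996). The genes that were not called had lower values, with Zfp790 (r = 0.984) and Zfp120 (r = 0.983) for Birc2, Cdc14a (r = 0.989) and Disp1 (r = 0.988) for Xiap, and Slc8b1 (r = 0.975) and Nsun6 (r = 0.974) for Tnfrsf10b.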

How the data were processed

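Each of the 6 deposited files lists 41388 genes with their read count, CPM and RPKM, per the file headers. The submitters' processing notes list GRCm38, featureCounts 1.45 and Subread, STAR 2.0.4b and bcl2fastq. Neither a strand setting nor an annotation release is given in the sources used. The deposited CPM equalled the count over the file's total (largest difference 3.3e-11), and the deposited RPKM was this CPM divided by gene length in kilobases (to within 7.6e-11). Counts were tested, and the authors' RPKM was used to compare levels between genes. Symbols came from GENCODE M21 for 40254 identifiers (Septin4 is Sept4 there), and promoter windows from RefSeq.

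Genes were kept by filterByExpr (minimum count 10, minimum total 15), which left 12339 tested. Counts were scaled by TMM and tested with the quasi-likelihood test of edgeR 4.0.16 (R 4.3.3), fitting all 6 libraries with a mean for each group (residual degrees of freedom 3), and called at an adjusted p under 0.05 (Benjamini-Hochberg). SE is the log2 fold change over the square root of F, and 95% intervals use the residual and prior degrees of freedom. The test was checked on simulated counts. DESeq2 1.42.0, another scaling, 2 other filters, the compared groups alone, a replicate block, a 1.5-fold test and leaving out each library were alternatives, and total-count scaling and a crossed block were added after seeing the data.

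The 10 genes and the lists were chosen with earlier results of these data known. Named are all 10 genes, the 2 most similar genes of each tested one (mean of at least 5 CPM), and from each gene group of the apoptosis list up to 3 called genes per comparison, those of lowest adjusted p. A gene of the list is not reported here. Bid, Fasl, Lta, Tnf, Tnfsf10 and Ripk3 were named after their values were seen. The kB consensus was searched after a narrower form had no match. The replicate numbers come from the sample titles, which do not say that a number marks a shared day or culture.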

Additional observations from a re-analysis of the deposited data

How the results depend on the processing

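The results were recomputed under 14 alternatives. Directions of the 5 genes lower and of Bak1 higher in the KO did not change in any. Log2 fold changes of genes that were not called changed sign. With total counts they were 0.013 for Birc2 and 0.088 for Tnfrsf10b in KO against wild type, and -0.045 for Birc2 in rescue against KO. Without single libraries they ranged in KO against wild type from -0.216 to 0.008 for Birc2 and from -0.115 to 0.038 for Tnfrsf10b, in rescue against KO from -0.028 to 0.067 for Birc2, from -0.023 to 0.582 for Birc3 and from -0.179 to 0.024 for Xiap, and in rescue against wild type from -0.193 to 0.03 for Birc2. The test against a 1.5-fold change asks for a larger change and called 479 genes higher and 927 lower in KO against wild type (0 and 2 of the 10 genes, 1 and 6 of the list), 24 and 14 in rescue against KO (0 of the 10 higher, 0 and 0 of the list), and 198 and 353 in rescue against wild type (1 of the 10 lower, 2 and 4 of the list). DESeq2 called 6 of the list higher in KO against wild type, 355 genes and 2 of the list lower in rescue against KO, and 694 genes and 2 of the list higher in rescue against wild type. Total-count scaling called 18 of the list higher and 15 lower in KO against wild type, 1185 genes and 7 of the list lower and 1 of the 10 higher in rescue against KO, and 2 of the 10 lower in rescue against wild type; the share of calls that were higher was 41.4% in rescue against KO and 58.2% in rescue against wild type, against 58.7% and 46% with TMM. With only the compared groups, rescue against KO gave 667 genes higher and 377 lower (1 of the 10 higher, 6 and 2 of the list), and rescue against wild type 3 of the 10 lower. The cause of these differences was not tested.

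The replicate numbers share only a number: the correlations of same-numbered deviations were 0.037 for KO and wild type, -0.192 for rescue and KO and -0.153 for rescue and wild type. A replicate block gave 429 genes and 2 of the list lower and 1 of the 10 higher in rescue against KO, and 2 of the 10 lower and 3 of the list higher in rescue against wild type. With the rescue numbers crossed, 1425 genes were called higher and 1135 lower in rescue against KO, and 1535 and 1779 in rescue against wild type.

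Leaving out 1 library gave 1688 to 3297 genes higher and 2005 to 3414 lower in KO against wild type (0 to 1 and 5 to 5 of the 10, 5 to 14 and 13 to 19 of the list), 139 to 1849 and 64 to 1596 in rescue against KO (0 to 2 and 0 to 1 of the 10, 2 to 12 and 0 to 6 of the list), and 417 to 1699 and 691 to 1953 in rescue against wild type (0 to 1 and 1 to 4 of the 10, 2 to 9 and 7 to 14 of the list), where a lone library is taken to vary like the other groups. Fas, at 16 counts in all, was too low to test.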

Other observations

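The first rescue library had 492 CPM of Irak4 and the second 211, and the second lay nearer to wild type for several of the genes described. Cflar was at 116 CPM in the first and 157 in the second rescue library, against 192 and 184 in wild type, and Bcl2l1 at 145 and 174, against 207 and 194. Bak1 was at 82.2 and 65.7, against 64.8 and 64.1 in wild type, and Bcl2 at 42.4 and 47.4, against 58.7 and 53.8. Mcl1 went against this, at 354 in the first and 316 in the second rescue library, against 409 and 406 in wild type. So did Xiap, at 119 and 103, against 119 and 137 in wild type, and Birc3, at 10.4 and 8.92, against 24.1 and 21.8. Other genes of the list went either way, with the second rescue library nearer to wild type for Bcl2l11 and the first nearer for Tnfrsf21. With 2 rescue libraries no relation to the level of Irak4 was tested.

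Of the 3 necroptosis genes listed, Ripk3, the kinase that activates MLKL, had 1 count in all libraries together. Mlkl, which encodes the membrane-disrupting effector, had 137 ± 12.2 CPM in the rescue, 108.3 ± 9.72 in the KO and 109.2 ± 1.22 in wild type (SD, n = 2 each). It was higher in the rescue than in the KO (edgeR adjusted p = 0.0398) and than in wild type (edgeR adjusted p = 0.0322), calls that held in 4 of 14 alternatives against the KO and 8 of 14 against wild type. Zbp1, an interferon-induced sensor of Z-form nucleic acids, had 4.57 ± 1.08 CPM in the rescue, 2.54 ± 0.19 in the KO and 1.06 ± 0.16 in wild type. It rose in the rescue over wild type (edgeR adjusted p = 0.0016) in every alternative run, and in the KO over wild type (edgeR adjusted p = 0.0167), a call lost in DESeq2, without either wild-type library and without the first KO library.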
